A study of Mus musculus with 4 samples.

Results

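The nuclei described here are astrocytes of the mouse thalamus, picked from 4 libraries of single-nucleus RNA sequencing, in which each nucleus carries a barcode and each captured RNA molecule is counted once through a unique molecular identifier (UMI). A barcode was kept when it held at least 500 genes and under 5% mitochondrial UMIs. A kept nucleus was called an astrocyte when Slc1a3, Slc6a11, Slc39a12, Bmpr1b and Rfx4 summed to at least 10 UMIs per 10000 and to more than the neuronal genes Myt1l and Celf4, while the oligodendrocyte genes Prr5l, St18, Mag and Mog and the myeloid genes Ly86, Fyb and Ikzf1 each summed to under 10 per 10000. The gate therefore selected on measured values of 14 genes, and for these only levels are given, with no test. It held 2752 of 32241 kept nuclei, from 32332 barcodes. The mice were adult wild-type C57BL6 animals of 7 to 8 weeks. The COL group received collagenase IV (0.01 U per 10 nl in saline), an enzyme that breaks vessel walls and causes bleeding, and the NS group normal saline, in each case into VPM and VPL, the ventral posterior nuclei on the right side of the thalamus. Both groups therefore carried an injection, and no uninjected tissue was included. Injured thalamic tissue was taken 7 days later, each library pooled 3 mice, and each group had 2 libraries, so that p-values measure the spread between pools.

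Astrocytes take up glutamate, GABA and potassium released by neurons, supply lactate and cholesterol, and enclose blood vessels with end-feet rich in the water channel Aqp4. After injury they become reactive. Their intermediate filaments (Gfap, Vim, Nes) increase, cytokines of the interleukin-6 family signal through the receptor chain gp130 (Il6st) and the transcription factor STAT3, and at the edge of a lesion they form a border that separates damaged from spared tissue.

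The share of kept nuclei in the astrocyte gate was lower in both COL libraries. It was 12.8% in NS replicate 1 (1238 of 9662 nuclei, exact 95% Clopper-Pearson interval 12.2 to 13.5), 10.3% in NS replicate 2 (1070 of 10384), 3.05% in COL replicate 1 (181 of 5930) and 4.20% in COL replicate 2 (263 of 6265). The groups did not overlap, and their means were 11.6% ± 1.77 (SD, n = 2) and 3.63% ± 0.810 (SD, n = 2), a ratio of 3.19. An exact two-sided permutation test gave p = 0.33, the smallest p that 2 libraries against 2 allow. The shares of the 3 other gated cell types overlapped between groups: oligodendrocytes made up 25.9% and 39.3% of NS nuclei against 31.1% and 30.0% of COL nuclei, their precursors 2.73% and 2.56% against 2.51% and 3.18%, and neurons 46.4% and 32.1% against 45.2% and 39.8%. Nuclei in none of the 4 gates made up 12.3% and 15.9% against 18.6% and 23.3%, without overlap. A share of nuclei is relative to the other nuclei recovered, so that loss of astrocytes, a lower yield of their nuclei and levels of the gate genes that fall below the threshold cannot be told apart. Under stricter exclusions, with the neuronal, oligodendrocyte and myeloid gate genes each at 2 per 10000 or below, the gate held fewer nuclei and the difference between the means was -2.28 percentage points in place of -7.93, at a ratio of 5.53 in place of 3.19. With a gate on Aqp4 and Gja1 the difference was -2.45 and the ratio 3.34.

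**Figure D1:**
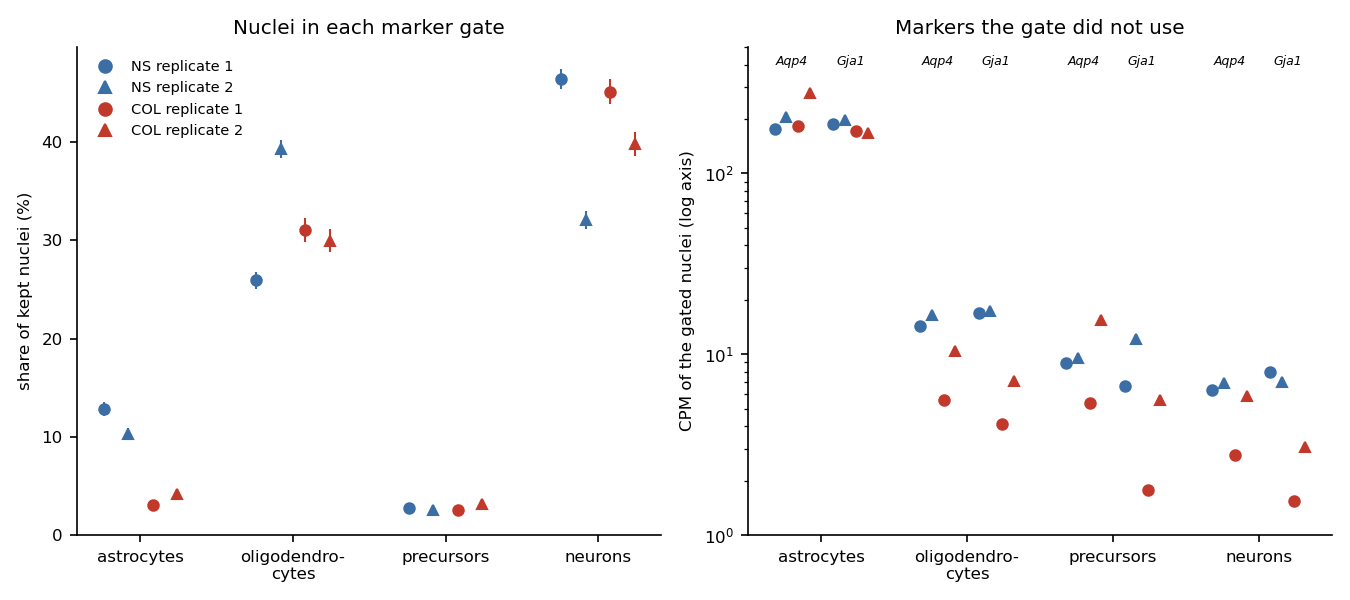
Share of kept nuclei in each marker gate, in percent with exact 95% intervals (left), and level of Aqp4 and Gja1 in the gated nuclei, in counts per 1000000 UMIs (CPM) on a log axis (right), for the 4 libraries. The astrocyte share was 12.8% and 10.3% in NS (blue) and 3.05% and 4.20% in COL (red), and Aqp4 in astrocytes stood at 176 to 278 CPM against 5.59 to 16.5 in oligodendrocytes.

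Aqp4 and Gja1 (connexin 43, the main astrocyte gap junction protein) were not part of the gate and served to check the label. Levels are given as counts per 1000000 UMIs (CPM), and 4 values in a row stand for both NS and then both COL libraries, each by replicate number. Aqp4 stood at 176, 205, 184 and 278 CPM in astrocytes, and at 5.59 to 16.5 in oligodendrocytes of the same libraries. Gja1 stood at 188, 198, 172 and 167 CPM in astrocytes and at 4.13 to 17.3 in oligodendrocytes. With every nucleus thinned to 1000 UMIs, Aqp4 was seen in 16.0%, 17.0%, 13.3% and 19.4% of astrocytes and in 0.224% to 0.669% of neurons, which should lack it. Both markers thus stood far above the level in neurons in every library, as the label requires. Near the threshold, 18, 20, 6 and 7 nuclei had a gate sum of 8 to under 10 per 10000 and met the other criteria, and 20, 39, 4 and 11 had 10 to under 12.

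Of the gate genes, Slc6a11 (the GABA transporter GAT-3) stood at 1198, 974, 667 and 627 CPM. Both COL values lay below both NS values. Slc1a3 (the glutamate transporter GLAST) stood at 1398, 805, 1260 and 983, Slc39a12 (a zinc importer) at 447, 516, 479 and 495, Bmpr1b (a BMP receptor) at 483, 499, 485 and 465, and Rfx4 (a transcription factor) at 419, 379, 398 and 347.

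The astrocytes of the libraries held 5383232, 3996244, 1206856 and 1976405 UMIs in all, with medians of 3779, 3353.5, 5812 and 6798 UMIs per nucleus. COL nuclei were thus fewer and more deeply covered. No astrocyte barcode occurred in a second library, whereas 101 kept barcodes did. Markers of other cells were also present in the gated nuclei, and their sums over each list are given here as ranges over the NS and the COL libraries. Macrophage markers (8 genes) summed to 10.0 to 15.3 and 58.0 to 123 CPM, T and NK cell markers (7) to 12.5 to 14.1 and 36.5 to 39.5, endothelial markers (7) to 15.6 to 21.5 and 27.3 to 33.9, and neuronal markers outside the gate (10) to 6296 to 6934 and 8140 to 10768. Microglial markers (8 outside the gate, 121 to 175 and 113 to 226) and those of pericytes and fibroblasts (9, 80.4 to 91.3 and 75.9 to 148), ependymal cells (7, 12.8 to 23.6 and 14.7 to 72.9), oligodendrocytes (7, 1384 to 1846 and 695 to 1584) and their precursors (7, 627 to 695 and 799 to 856) were counted too, and no marker on any list was at 0 in every library. By gene, 3 of the 5 macrophage markers tested rose (Gpnmb, Lyz2 and Pf4), as did 3 of the 6 tested pericyte and fibroblast markers (Col3a1, Col1a2 and Col1a1), Ptprc of the 3 T and NK cell markers tested, Inpp5d of the 8 microglial markers, and Cntnap2, Rbfox1 and Nrg3 of the 10 neuronal markers. Pdgfrb of the pericyte list, Slc17a6 of the neuronal, P2ry12 of the microglial and Opalin of the oligodendrocyte list fell. These are calls of the edgeR test described below, beside 5.23% of all genes tested that rose and 7.25% that fell. Markers with few NS counts could be tested only through their COL counts, so that these counts lean towards rises. The part of such RNA in the results was not tested, but each count was repeated without 28, 32, 16 and 18 gated nuclei that held 10 or more per 10000 of macrophage, T or NK, endothelial, pericyte, fibroblast or ependymal markers, or under 10 per 10000 of the abundant astrocyte transcripts Gpc5 and Slc1a2. This setting was chosen after the data were seen, and these are called the left-out nuclei.

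UMI counts were summed over the astrocytes of each library and tested with edgeR's quasi-likelihood test. From here on CPM are those after TMM normalisation, and changes are log2 fold changes of COL over NS, with an adjusted p under 0.05 taken as a call. Of 14506 genes tested outside the gate, 759 rose in COL (5.23%) and 1051 fell (7.25%), together 12.5%, and the median log2 change was -0.02. The libraries of the groups did not overlap for 28.6% of these genes in the direction of higher COL values and for 32.7% in that of lower ones, so that separation alone is common here. With the left-out nuclei removed, 1856 of 14339 tested genes were called in place of 1810 of 14506. Under the stricter exclusions, which left 282 and 274 NS and 34 and 27 COL nuclei, 482 of 8443 were called (5.71%).

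Of 10 tested members of a pan-reactive list, 9 rose, none fell and the median log2 change was 4.00, beside 5.23% of all genes tested. Members with few NS counts passed the filter on low counts only through COL, where they were high. The lists were also chosen with earlier results of these data known. Counts and medians of a list with such members therefore lean towards rises, here and below. Gfap (chr11:102887336-102900912 in GENCODE on GRCm38, the sequence of mm10), the intermediate filament protein that marks reactive astrocytes, was at 8.03 and 8.99 CPM in NS and at 80.2 and 136 in COL. Both COL libraries stood far above both NS libraries, and the log2 change was 3.70 (SE 0.28, edgeR adjusted p = 0.000361). It was 4.07 under the stricter exclusions (adjusted p = 9.59e-05). Cd44, a receptor for hyaluronan, stood at 6.61, 4.36, 80.2 and 76.5, again without overlap. Its log2 change was 3.79 (SE 0.25, edgeR adjusted p = 0.000194), and 3.54 under the stricter exclusions. In thinned nuclei Cd44 was seen in 4.44% and 4.94% of COL astrocytes. The shares were 2.99% and 3.09% in COL oligodendrocytes, 6.04% and 4.02% in COL precursors and 1.61% and 1.40% in COL neurons. The astrocyte shares thus lay above those of oligodendrocytes and neurons, and between those of precursors.

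The remaining pan-reactive members had lower levels. Vim (vimentin) was at 1.43 and 1.03 in NS and at 18.1 and 28.3 in COL (log2 change 4.20), Serpina3n (a secreted protease inhibitor) at 2.32, 4.11, 37.1 and 70.9 (4.15), and Osmr (the oncostatin M receptor) at 0.714, 0.513, 21.5 and 28.8 (5.26). All 3 were separated by group. Lcn2 (lipocalin 2, which binds bacterial iron carriers) had 21 and 30 UMIs in COL and 0 in both NS libraries, at least 50.1-fold higher when NS is set at a floor of 3 UMIs over the group, and the list's median is the same with Lcn2 at that bound. Aspg and Timp1, an inhibitor of matrix proteases, rose too, while S1pr3, a receptor for sphingosine 1-phosphate, had a log2 change of 1.31 that missed the threshold. Steap4, Hspb1 and Cxcl10 were too low to be tested. In the same libraries 6 of 9 tested members were called higher in oligodendrocytes (median log2 change 3.57) and 5 of 7 in precursors (4.45), and none lower, beside 7.01% and 6.71% called higher of the genes tested in all 3 cell types. Serpina3n had log2 changes of 5.13 and 5.53 there, and in nuclei thinned to 1000 UMIs it was seen in 5.00% and 5.32% of COL astrocytes and in 6.03% and 10.7% of COL oligodendrocytes. Of the list's members, 8 were called higher in astrocytes without the left-out nuclei.

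Cp, the ceruloplasmin gene (chr3:19957054-20009145), whose product oxidises iron for export, had the smallest p of the list, from few nuclei. It was at 8.57 and 12.8 CPM in NS and at 159 and 145 in COL (log2 change 3.85, SE 0.22, edgeR adjusted p = 0.000104). The 185 UMIs of COL replicate 1 came from 21 of 181 nuclei, of which 4 held at least 50% of them, and the 282 UMIs of COL replicate 2 from 29 of 263 nuclei, of which 2 held at least 50%. Without the left-out nuclei 66 and 235 UMIs remained and the log2 change was 3.69. Under the stricter exclusions only 2 and 4 UMIs remained, at 8.78 and 20.0 CPM beside 12.04 and 17.65 in NS, and the log2 change was -0.05 (adjusted p = 0.978), so that almost all Cp UMIs of COL lay in gated nuclei above 2 per 10000 of a class of excluded genes.

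A pair of further lists, A1 and A2, hold genes induced after endotoxin and after ischaemia. Of 8 tested A1 genes 5 rose and 1 fell (median log2 change 1.98), beside 5.23% and 7.25% of all genes. Fkbp5, a co-chaperone of the glucocorticoid receptor, was at 8.39, 10.5, 31.0 and 49.8 CPM (2.14, adjusted p = 0.00424), and Iigp1, an interferon-induced GTPase, at 0.357, 0.513, 16.4 and 5.14 (4.43). The groups did not overlap for either gene. Srgn, Serping1 and Ggta1 rose as well, Amigo2 fell, H2-D1 was at 0.82 and not called, and C3, Gbp2, Psmb8 and H2-T23 were too low to be tested. Of 5 tested A2 genes, Tgm1 (a transglutaminase), Cd109, Emp1 and Tm4sf1 rose (median 3.43), while Clcf1, Ptx3, Sphk1, Ptgs2, Slc10a6, B3gnt5 and Cd14 were too low. In these lists 4 A1 and 3 A2 genes were called higher without the left-out nuclei. Neither list was measured in full, and members with few NS counts could be tested only through their COL counts. The counts and medians of both lists therefore do not describe the lists as a whole.

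**Figure D2:**
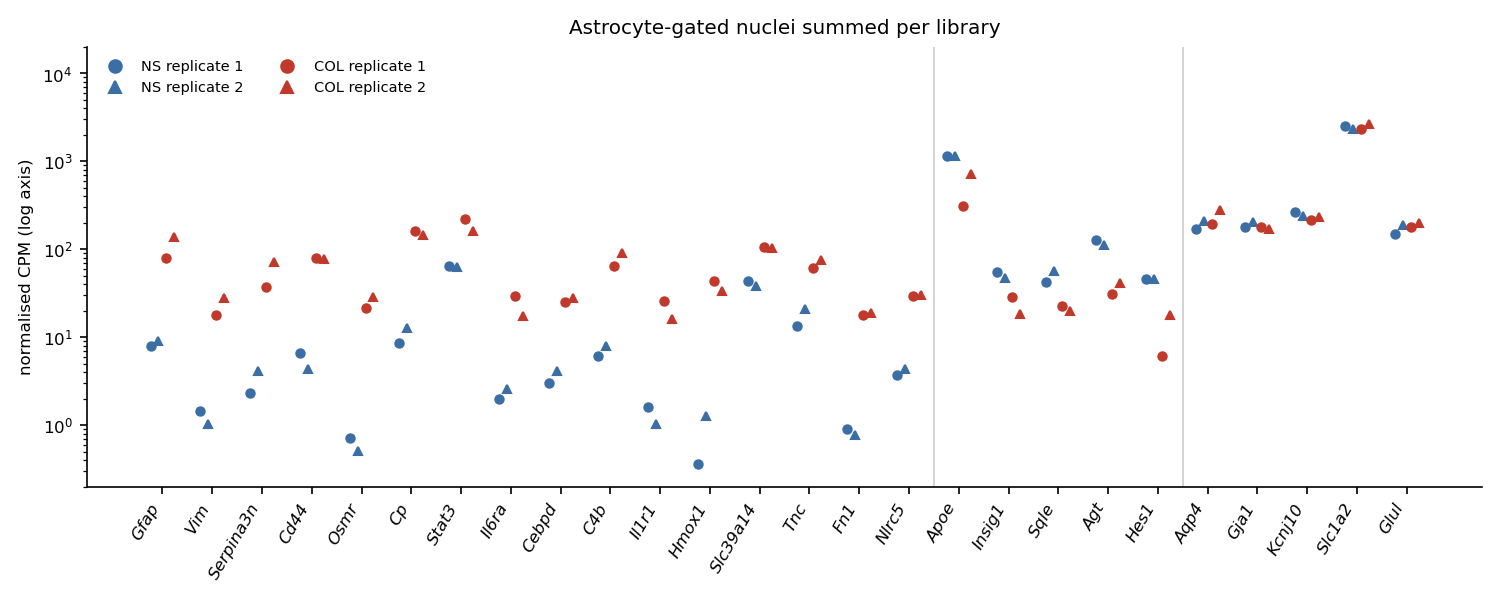
Level of 26 genes in the astrocytes of each library, in normalised CPM on a log axis, with genes that rose on the left, genes that fell in the middle and genes that were not called on the right. Gfap was at 8.03 and 8.99 in NS (blue) and at 80.2 and 136 in COL (red), Apoe at 1163 and 1159 against 315 and 716, and Aqp4 overlapped between the groups.

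Genes of gp130 and STAT3 signalling rose in part. Of 12 tested genes 5 rose and none fell (median log2 change 0.56), beside 5.23% and 7.25% of all genes. Stat3 itself (chr11:100885098-100939540) was at 65.2 and 62.9 CPM in NS and at 221 and 161 in COL (log2 change 1.56, SE 0.18, edgeR adjusted p = 0.0022). The libraries were separated by group, and under the stricter exclusions the log2 change was 1.07 (edgeR adjusted p = 0.0305). In thinned nuclei Stat3 was seen in 6.65%, 6.97%, 15.6% and 14.1% of astrocytes. The shares were 4.92%, 5.17%, 14.5% and 13.4% in oligodendrocytes, and 7.20%, 6.02%, 17.4% and 14.6% in precursors. In neurons they were 3.75%, 4.18%, 7.36% and 7.46%. The rise of Stat3 is thus not read as particular to astrocytes. Il6ra, the interleukin-6 receptor, was at 1.96, 2.57, 29.3 and 17.5 (3.33), Cebpd, a transcription factor of the acute phase, at 3.04, 4.11, 25.0 and 28.3 (2.92), and Bcl3, a nuclear partner of NF-kappaB, had 1 and 0 UMIs in NS and 27 and 53 in COL. Socs3, which inhibits gp130 receptors, had 4 and 0 against 5 and 12 UMIs (log2 change 3.58, adjusted p = 0.0225). The receptor chains Il6st (0.51, adjusted p = 0.0774), Lifr and Cntfr, the kinases Jak1 and Jak2, and Pim1 and Pim3 were not called.

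STAT3 binds the letters TTCNNNGAA. The called members with the smallest p of the pan-reactive and gp130 lists were picked here, so that their rises are not a further result. Their promoters are shown with the letters marked. They are taken from RefSeq (GRCm38.p6), 250 bases before to 50 bases after a transcript start, 5′ to 3′ on the gene's strand, with TTCNNNGAA in capitals: Gfap at chr11:102897151-102897450, minus strand; Cd44 at chr2:102901616-102901915, minus strand; Bcl3 at chr7:19822706-19823005, minus strand; and Cp at chr3:19956804-19957103, plus strand, the upstream window of a pair for this gene.
Gfap: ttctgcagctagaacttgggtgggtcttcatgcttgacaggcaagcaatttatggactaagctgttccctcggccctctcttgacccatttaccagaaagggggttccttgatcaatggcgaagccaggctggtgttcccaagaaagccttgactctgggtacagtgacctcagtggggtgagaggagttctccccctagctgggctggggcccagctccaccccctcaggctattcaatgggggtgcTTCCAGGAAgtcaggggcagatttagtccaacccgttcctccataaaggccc
Cd44: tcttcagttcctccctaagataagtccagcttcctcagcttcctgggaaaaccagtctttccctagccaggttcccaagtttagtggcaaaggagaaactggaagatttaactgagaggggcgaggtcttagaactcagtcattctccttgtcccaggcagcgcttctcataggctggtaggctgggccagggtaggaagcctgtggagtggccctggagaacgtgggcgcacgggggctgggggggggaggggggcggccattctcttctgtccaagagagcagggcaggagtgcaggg
Bcl3: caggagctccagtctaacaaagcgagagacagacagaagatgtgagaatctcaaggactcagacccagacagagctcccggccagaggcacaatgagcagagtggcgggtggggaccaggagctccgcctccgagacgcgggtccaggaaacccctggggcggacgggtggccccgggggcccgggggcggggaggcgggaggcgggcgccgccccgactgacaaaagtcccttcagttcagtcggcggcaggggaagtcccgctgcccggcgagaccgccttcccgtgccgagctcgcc
Cp: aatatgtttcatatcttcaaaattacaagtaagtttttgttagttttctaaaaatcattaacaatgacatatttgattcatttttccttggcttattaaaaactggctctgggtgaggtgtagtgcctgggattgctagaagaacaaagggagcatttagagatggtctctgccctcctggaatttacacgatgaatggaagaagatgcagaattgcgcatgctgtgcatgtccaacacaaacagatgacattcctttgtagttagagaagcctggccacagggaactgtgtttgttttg
In the Gfap window the letters begin 2 bases before the start, at base 249. Of 14 called members of these lists, 13 had a window and 2 held the letters, Gfap and Socs3. The letters, which are their own reverse complement, occur in a window of 9.55% of all 27025 genes and in 8.30% of all 32851 windows, and a match is a description of the sequence only.

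Of 9 tested members of a list for NF-kappaB and cytokines, 4 rose (C4b, Il1r1, Tnfrsf1a and Nfkbia) and none fell (median log2 change 1.06). Of all genes 5.23% rose and 7.25% fell. C4b, a component of the complement cascade, was at 6.07, 7.96, 63.8 and 91.4 CPM (3.50, SE 0.26, edgeR adjusted p = 0.000361). Il1r1, the interleukin-1 receptor, was at 1.61, 1.03, 25.9 and 15.9 (3.86, adjusted p = 0.00246, and 2.98 without the left-out nuclei, where 10 of 30 and 20 of 31 COL UMIs remained), and Tnfrsf1a, a receptor for tumour necrosis factor, at 3.93, 5.39, 17.2 and 17.5 (1.91). No value of COL overlapped with NS for these 3 genes. Nfkbia, an inhibitor of NF-kappaB, was called at a log2 change of 1.12 but not without the left-out nuclei (0.85, adjusted p = 0.0942), and Nfkb1, Relb, Vcam1, Il33 and Il18 were not called.

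Of 14 tested interferon and antigen presentation genes, 8 rose and none fell (median log2 change 1.45), beside 5.23% and 7.25% of all genes. Nlrc5, which switches on class I antigen presentation genes, stood at 3.75, 4.36, 29.3 and 29.8 CPM (log2 change 2.87, adjusted p = 0.00121), and B2m, the light chain of class I molecules, at 11.8, 10.8, 24.1 and 30.3 (1.28). The groups were separated for both genes. Gbp3, Usp18, Bst2, Ifit1 and Stat2 rose as well, although Stat2 had a log2 change of -0.10 under the stricter exclusions. Cd74, the invariant chain of class II molecules and a gene of antigen presenting cells, was at 0.357, 1.28, 19.8 and 47.8 (5.50, edgeR adjusted p = 0.00124) in the same sums in which macrophage markers were higher. Of its 23 and 93 COL UMIs, 20 and 86 remained without the left-out nuclei. Under the stricter exclusions its log2 change was 4.02 (edgeR adjusted p = 0.00309, 7 and 11 COL UMIs). The source of this RNA was not tested.

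Of 19 tested matrix genes 9 rose and 1 fell (median log2 change 0.67), beside 5.23% and 7.25% of all genes. Tenascin C (Tnc) stood at 13.6 and 21.1 CPM in NS and at 61.2 and 76.0 in COL (2.02, SE 0.25, edgeR adjusted p = 0.00275). Its 71 and 148 COL UMIs lay in 23 and 29 nuclei, of which 3 in each library held at least 50%, and in nuclei thinned to 1000 UMIs it was seen in 1.13%, 2.07%, 5.00% and 2.28% of astrocytes. Fibronectin (Fn1) stood at 0.893, 0.770, 18.1 and 19.0 (4.40). Thbs1 (thrombospondin 1), Spp1 (osteopontin), Sulf1, Sulf2, Chst11 and the type IV collagen chains Col4a1 and Col4a2 rose, and Ncan (neurocan, a proteoglycan of the perineuronal matrix) was at 72.0, 62.6, 42.2 and 38.0 and fell by 0.76 on the log2 scale. The calls without the left-out nuclei were 6 matrix genes higher and 1 lower. Vcan, Bcan and Ptprz1 were not called.

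Of 12 tested genes of the cytoskeleton and adhesion, 8 rose and none fell (median log2 change 1.50), beside 5.23% and 7.25% of all genes. Msn (moesin, which ties actin to the membrane) stood at 5.89, 5.13, 20.7 and 29.3 CPM (2.19), Anxa2 (annexin A2) at 1.96, 2.05, 20.7 and 17.0 (3.19), and Flna (filamin A) at 8.75, 7.96, 35.3 and 22.6 (1.74). Each was separated by group. Nes (nestin), a filament of progenitors and reactive astrocytes, had 8 and 14 UMIs in COL and 0 in both NS libraries, at least 21.6-fold higher against the floor. Ezr, Actn1, Tagln2 and Myo1e rose too, and 8 members of the list were called higher without the left-out nuclei.

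Of 18 tested genes for haem, iron and oxidative stress, 3 rose and 2 fell (median log2 change 0.08), beside 5.23% and 7.25% of all genes. Counts this small are not read as a change of the list. Hmox1, the inducible haem oxygenase that breaks down haem from blood, had 2 and 5 UMIs in NS and 50 and 65 in COL (0.357, 1.28, 43.1 and 33.4 CPM), a log2 change of 5.59 (SE 0.44, edgeR adjusted p = 0.000367). In nuclei thinned to 1000 UMIs it was seen in 1.67% and 3.80% of COL astrocytes, 0.934% and 1.28% of COL neurons and 1.90% and 2.29% of COL oligodendrocytes. In COL precursors the shares were 4.70% and 1.51%. In COL replicate 1 the astrocyte share thus lay above neurons and below both other glia. Slc39a14, an importer of zinc and iron, stood at 43.9, 38.5, 106 and 104 (1.35, adjusted p = 0.00297) and Mt2, a metallothionein, rose by 1.03. Mt3, the brain metallothionein, was at 124, 148, 53.4 and 75.0 and fell by 1.06 on the log2 scale, and Gpx4, which protects membrane lipids from peroxides, fell by 1.15. The ferritin chains Fth1 (-1.17, adjusted p = 0.106) and Ftl1 (0.68, adjusted p = 0.195) were not called.

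**Figure D3:**
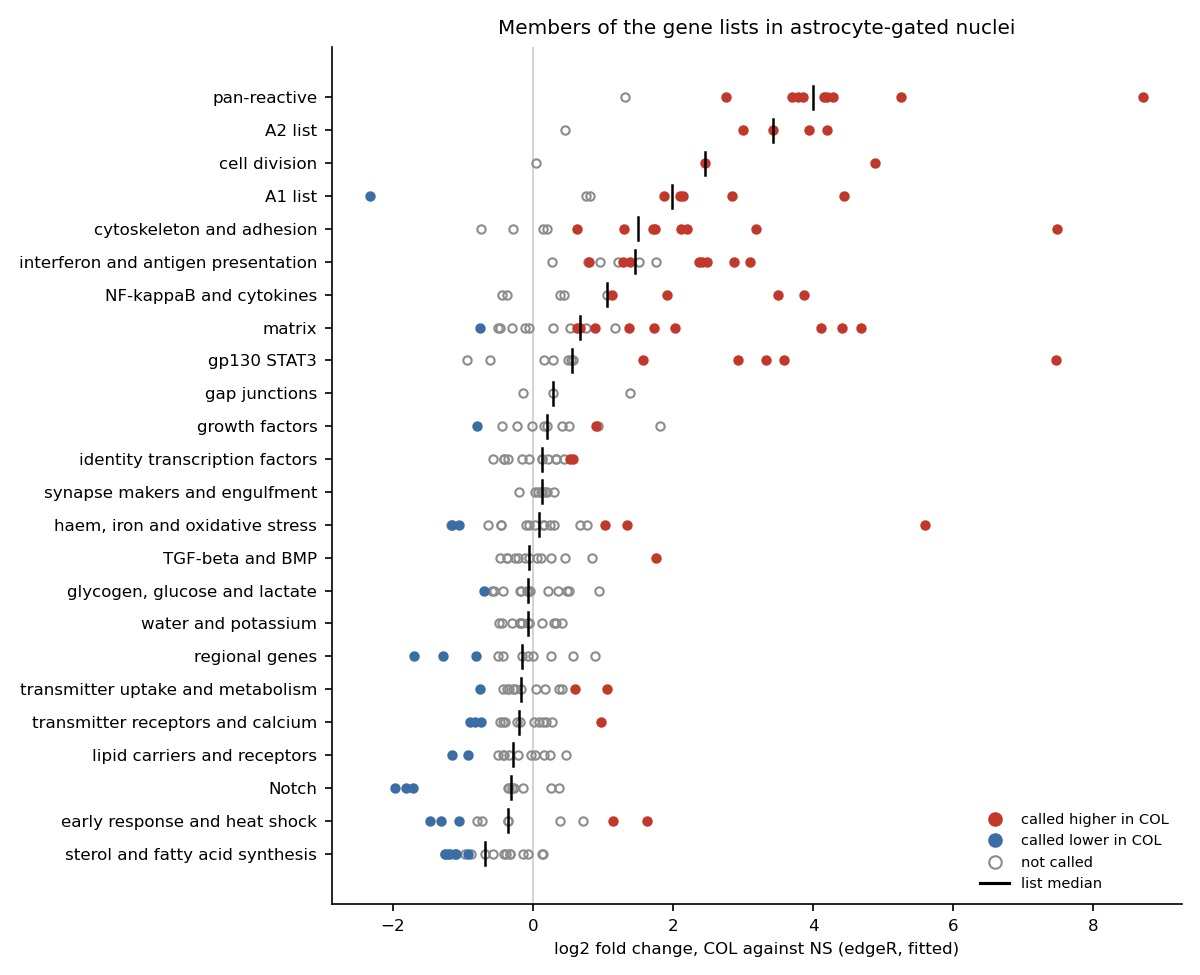
Log2 fold change of COL over NS in astrocytes for every tested member of 24 gene lists, 1 point a gene, filled red or blue where edgeR called it higher or lower, with a bar at the list median. The pan-reactive list had a median of 4.00 and 9 of 10 members higher, and the sterol and fatty acid list a median of -0.69 and 6 of 19 lower. Of all genes 5.23% were called higher and 7.25% lower.

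Of 19 tested genes of sterol and fatty acid synthesis 6 fell and none rose (median log2 change -0.69, beside 7.25% of all genes lower). Sqle (squalene epoxidase) stood at 42.0, 56.2, 22.4 and 20.0 CPM (-1.21, SE 0.24, edgeR adjusted p = 0.0144), Insig1, which holds back sterol synthesis when sterols are plentiful, at 55.7, 46.7, 28.4 and 18.5 (-1.18), and Hmgcs1 at 116, 143, 82.7 and 41.6 (-1.11). For these genes both COL values lay below both NS values. Scd2, a desaturase of fatty acids, and Fdps fell as well.

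Apoe (chr7:19696109-19699188), the lipid carrier that astrocytes secrete in the brain, was at 1163 and 1159 CPM in NS and at 315 and 716 in COL. The COL libraries were below both NS libraries but differed from each other, and Apoe fell by 1.16 on the log2 scale (SE 0.29, edgeR adjusted p = 0.0316). DESeq2 did not call it (log2 change -1.15, adjusted p = 0.223), and the edgeR log2 change was -0.69 without COL replicate 1 and -1.88 without COL replicate 2. In thinned nuclei Apoe was seen in 70.9%, 66.9%, 27.2% and 51.0% of astrocytes and in 15.4%, 15.3%, 4.74% and 19.3% of neurons. The shares were 33.6%, 33.1%, 9.39% and 28.6% in oligodendrocytes and 34.8%, 36.8%, 12.1% and 27.6% in precursors. COL replicate 1 was lowest in every cell type, and the fall of Apoe is not read as particular to astrocytes. Abca1, which loads lipid onto apolipoproteins, was at 153, 135, 181 and 216 with a log2 change of 0.47 that missed the threshold (adjusted p = 0.0852), although the groups did not overlap. In all, 2 of 12 tested genes of the lipid carrier and receptor list fell and none rose (median -0.28). Of all genes 7.25% fell and 5.23% rose.

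The genes for water, potassium and gap junctions were not called. None of 13 tested genes for water and potassium passed in either direction in edgeR (median log2 change -0.07), nor did any of 3 gap junction genes. Of all genes 12.5% were called, so that lists this small can hold no call at that share. Aqp4 stood at 169, 210, 191 and 283 CPM (0.34, adjusted p = 0.300), Kcnj10 (the potassium channel Kir4.1) at 262, 242, 218 and 235 (-0.15, adjusted p = 0.534) and Gja1 at 181, 203, 178 and 170 (-0.14, adjusted p = 0.574). Aqp4 overlapped between the groups, while both COL values of Kcnj10 and Gja1 lay below both NS values. Slc4a4, a bicarbonate transporter, was at 0.30 (adjusted p = 0.214).

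Of 13 tested genes for transmitter uptake and metabolism 2 rose and 1 fell (median log2 change -0.17). Of all genes 5.23% rose and 7.25% fell, shares that stand beside every count in this paragraph. A single fall in 13 genes is near that share. The glutamate transporter Slc1a2 (GLT-1) was at 2513, 2349.8, 2342 and 2651 CPM (0.04, adjusted p = 0.895), and Glul (glutamine synthetase) at 148, 189, 178 and 200 (0.17, adjusted p = 0.544). Slc7a11, which exchanges glutamate for cystine, was at 259, 274, 738 and 383 and rose by 1.06 (adjusted p = 0.0263), and 544 of its 856 UMIs in COL replicate 1 remained without the left-out nuclei. Slc38a3, which exports glutamine, was at 83.2, 96.5, 141 and 133 and rose by 0.60, and Slc6a9 (the glycine transporter GlyT1) was at 164, 183, 83.6 and 120 and fell by 0.75. Of 14 tested receptor and calcium genes, Grm5, a metabotropic glutamate receptor, rose (327, 393, 646 and 764, log2 change 0.97, adjusted p = 0.00809), and Ntsr2, Gpr37l1 and S1pr1 fell by 0.74, 0.89 and 0.83.

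Among Notch genes, 3 of 10 tested fell and none rose (median log2 change -0.32). Of all genes 7.25% fell and 5.23% rose, shares that stand beside every count in this paragraph. The target genes Hes1 (45.7, 46.5, 6.03 and 17.98 CPM, edgeR adjusted p = 0.0108) and Hes5 (70.5, 39.8, 25.0 and 11.3, adjusted p = 0.0195) fell by 1.81 and 1.71 on the log2 scale, and Nrarp, a target that restrains the pathway, by 1.96. Their groups did not overlap. The receptors Notch1 (-0.14) and Notch2 (0.37) were not called. Of 14 tested identity transcription factors, Nfix (0.58, adjusted p = 0.0429) and Sox5 (0.54, adjusted p = 0.0484) rose, none fell, and Sox9 was at 65.0, 54.9, 46.5 and 66.8 (-0.06). Of 11 tested regional genes Agt (angiotensinogen, more abundant in astrocytes of the diencephalon than of the cortex) was at 127, 111, 31.0 and 41.1 and fell by 1.70 (adjusted p = 0.00208), Mfge8 fell by 1.29 and Itih3 by 0.82, the latter not called without the left-out nuclei.

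The remaining lists are given beside the 5.23% of all genes that rose and the 7.25% that fell. A single call in a list of 13 or 14 is near those shares. Ldhb, a lactate dehydrogenase subunit, was the single call among 14 tested genes for glycogen, glucose and lactate (-0.69), and none of 9 tested genes for synapse formation and engulfment was called by edgeR. Tgfbr2, the type II receptor of TGF-beta, was the single call of 13 TGF-beta and BMP genes (3.75, 7.19, 18.1 and 17.98 CPM, log2 change 1.76). Of 11 growth factor genes Angpt1 (angiopoietin 1) rose by 0.89 and Fgfr2 fell by 0.80 on the log2 scale. Of 11 early response and heat shock genes Fos and Klf6 rose, and Jund, Hspa8 and Hsp90aa1 fell. Of the 12 cell division genes 3 could be tested, and Top2a (topoisomerase II) had 2 and 3 UMIs in NS and 11 and 44 in COL (log2 change 4.89, adjusted p = 0.00321), but these came from 3 and 14 COL nuclei. Cenpe rose too, with 3, 6, 6 and 11 UMIs, and Mki67 and Cenpf were too low to be tested.

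Outside the lists, the largest rises and falls were named by a fixed rule that required 20 CPM in the higher group and no overlap. Beside genes already given, Hmga2, a chromatin protein of development, was at 1.43, 0.513, 25.9 and 57.0 CPM (log2 change 5.31, edgeR adjusted p = 0.000816), but 1 nucleus held 67 of the 111 UMIs of COL replicate 2. Trabd2b, a protease that cuts Wnt proteins, was at 3.21, 2.57, 35.3 and 76.0 (4.27). Aldh1a2, an enzyme of retinoic acid synthesis known from meningeal fibroblasts, was called at 4.30, but its 48 and 11 UMIs in COL came from 7 and 6 nuclei, and 0 and 1 UMIs remained without the left-out nuclei. Of the 12 largest falls, Ptgds (prostaglandin D synthase) went from 363 and 1002 to 71.5 and 107 (-2.91, adjusted p = 0.00462), and Tac1, Cck and Pmch, which encode neuropeptides of neurons, fell by 2.82, 2.26 and 2.25. Bex1, Bex2, Pcp4, Calb2, Dlk1, Resp18, Chchd10 and Egfros made up the rest. The log2 change of Pmch was -2.29 in oligodendrocytes and -1.96 in precursors, and of Ptgds -2.64 and -2.85, and for none of the 12 did the change differ between astrocytes and either glia in edgeR (adjusted p of the difference at least 0.488).

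The UMIs of the reactive genes were spread unevenly over nuclei. Gfap was found in 41 of 181 astrocytes of COL replicate 1 and in 80 of 263 of COL replicate 2, and 10 and 11 nuclei held at least 50% of its UMIs. Stat3 was found in 112 and 146 nuclei, with at least 50% in 28 and 36, and was thus far more evenly spread. Cd44 was found in 29 and 42 nuclei, with at least 50% in 5 and 7. In nuclei thinned to 1000 UMIs, Gfap was seen in 0.972%, 0.659%, 7.22% and 8.75% of astrocytes and in 0.0223%, 0.0902%, 0.224% and 0.642% of neurons of the same libraries. The shares were 0.160%, 0.0989%, 0.706% and 1.55% in oligodendrocytes and 0%, 0%, 2.01% and 1.01% in precursors. Gfap shares were thus highest in astrocytes in each library, but higher in COL than in NS in every cell type. Vim was seen in 0.556% and 2.28% of COL astrocytes and in 0.411% and 0.883% of COL neurons. Vim was seen in 1.09% and 1.12% of COL oligodendrocytes and in 4.03% and 1.01% of COL precursors, so that in COL replicate 1 its share in astrocytes lay close to that in neurons and below both other glia. Before thinning Gfap was seen in 3.07%, 2.90%, 22.7% and 30.4% of astrocytes.

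**Figure D4:**
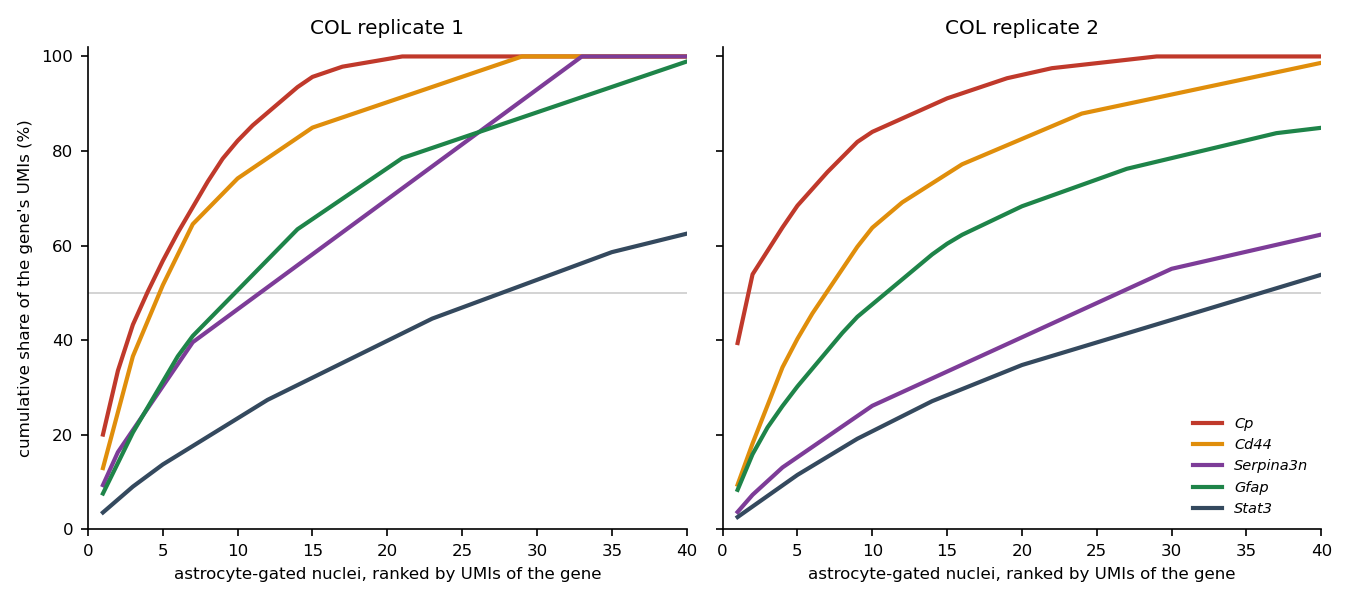
Cumulative share of the UMIs of 5 genes, in percent, over the astrocytes of each COL library ranked by their UMIs of that gene, for the first 40 nuclei. Cp climbs fastest (at least 50% in 4 and 2 nuclei) and Stat3 slowest (28 and 36 nuclei).

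At 1000 UMIs per nucleus, 49 of 1234 (3.97%, exact Clopper-Pearson interval 2.95 to 5.22) and 60 of 1062 (5.65%) NS astrocytes and 36 of 180 (20.0%, 14.4 to 26.6) and 73 of 263 (27.8%) COL astrocytes had a UMI of a pan-reactive gene. Without the left-out nuclei the shares were 3.57%, 4.94%, 14.5% and 25.7%. Most COL astrocytes thus showed none at this depth, and intervals cover counting error only. These shares were taken in astrocytes only. Serpina3n alone was seen in 6.03% and 10.7% of COL oligodendrocytes, so the shares are not read as particular to astrocytes. At least 3 pan-reactive UMIs were found in 0 of 1234, 0 of 1062, 7 of 180 and 12 of 263 nuclei. Of those, 6 of 7 and 11 of 12 had a UMI of Aqp4 or Gja1 before thinning, while their median of Gpc5 and Slc1a2 together was 0 and 3.5 UMIs, against 9 in all astrocytes of each COL library. A UMI of Aqp4 or Gja1 was also found in 80.2% and 86.9% of COL astrocytes with a gate sum of 12 and over. The count therefore does not set these nuclei apart. The left-out rule, which uses Gpc5 and Slc1a2, removed 4 of the 7 and 2 of the 12.

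Calls were also compared with those in other glia. Of the 759 genes that rose in astrocytes, 619 were tested in all 3 cell types, of which 276 were also called higher in oligodendrocytes, 313 in their precursors and 186 in both. Over all 11212 genes tested in the 3 cell types, 7.01% were called higher in oligodendrocytes, 6.71% in precursors and 3.00% in both. Of the 1051 that fell, 884 were tested in all 3, and 680 were called lower in oligodendrocytes, 521 in precursors and 462 in both, beside 10.6%, 7.91% and 5.56% of all genes. The 3 cell types came from the same libraries and are not independent of each other.

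The change itself differed between astrocytes and oligodendrocytes for 276 of 19151 genes tested in edgeR (1.44%), 152 of them higher (0.794%) and 124 lower (0.647%) in astrocytes. Between astrocytes and precursors it differed for 210 of 13399 (1.57%), with 146 higher (1.09%) and 64 lower (0.478%). The split between higher and lower depended on the setting. Against oligodendrocytes it was 95 higher and 135 lower with nuclei thinned to 2000 UMIs and 74 and 99 under the stricter exclusions, and against precursors 92 and 170 with no filter on low counts and 53 and 65 under the stricter exclusions. Past both thresholds were 46 genes: 27 higher and 17 lower in astrocytes than in each of the other glia, and 2, Steap3 and Neat1, in between. Without the left-out nuclei 19 of the 27 and 16 of the 17 passed both. This setting and the stricter exclusions removed nuclei from the astrocyte sums only, and the sums of the other glia were unchanged. Cp, Mthfd1l, Asap3, Cpne8, Adam12 and Ermard passed both with no filter on low counts, with thinning, without the left-out nuclei and without each library in turn, and Ermard also under the stricter exclusions. Other alternatives were not run for these differences. Of the 8 that were, Cpe passed both in 7, Slc4a4, Notch1 and Apobec1 in 5, Slc38a3 in 4 and Lama1 in 4. Genes named here beside list members were chosen after their values were seen.

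Among the 27, Mthfd1l, a mitochondrial enzyme of one-carbon metabolism, stood at 11.96, 11.8, 46.5 and 42.6 CPM in astrocytes, at 46.1, 51.6, 60.4 and 45.4 in oligodendrocytes and at 84.9, 76.4, 83.5 and 91.5 in precursors, with a log2 change higher by 1.79 (SE 0.21) and 1.83 (SE 0.25) in astrocytes. In COL astrocytes it thus stood close to oligodendrocytes and below precursors. Cp was at 151 and 148 in precursors of NS and 111 and 105 in those of COL, beside 159 and 145 in COL astrocytes, and its log2 change was higher by 4.46 and 4.39 in astrocytes with the limits given above. Cpe (carboxypeptidase E) was at 1377, 1644, 2945 and 2334 CPM in astrocytes (log2 change 0.80) and its change differed by 1.03 and 0.94.

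Slc38a3 rose in astrocytes while its log2 changes in oligodendrocytes and precursors were -0.38 and -0.71, neither of them called. The differences were 0.94 (edgeR adjusted p = 0.0226) and 1.38 (edgeR adjusted p = 0.0026). It stood at only 6.25, 7.14, 4.40 and 5.89 CPM in oligodendrocytes and at 41.3, 54.8, 34.2 and 25.2 in precursors. The rise of Slc38a3 in astrocytes missed the threshold under the stricter exclusions (log2 change 0.77, edgeR adjusted p = 0.0777). The call was also lost without either NS library and without COL replicate 1. Slc4a4 had log2 changes of 0.30, -0.56 and -0.68 in the 3 cell types. It stood at 2403 to 3145 CPM in astrocytes, 67.5 to 111 in oligodendrocytes and 69.4 to 120 in precursors. The source of the low levels of both genes in the other glia was not tested. Lama1, a laminin chain of basement membranes, was among the 27 with 134 and 65 UMIs in COL, but 2 and 3 remained without the left-out nuclei, in which it was not among the genes past both.

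Among the 17, Ermard stood at 33.6, 37.7, 56.0 and 60.6 CPM in astrocytes and rose by 0.72, while in oligodendrocytes it went from 27.9 and 26.8 to 254 and 234 and in precursors from 36.3 and 34.1 to 429 and 455. Its change in astrocytes was lower by 2.44 (SE 0.19) and 2.86 (SE 0.22) on the log2 scale. Apobec1, an RNA-editing deaminase, stood at 15.9, 15.7, 31.0 and 46.7 in astrocytes and rose there by 1.33, against log2 changes of 4.16 and 3.92 in the other glia. It stood at 1.06, 0.993, 13.2 and 23.4 in oligodendrocytes and at 2.90, 0.898, 37.0 and 27.1 in precursors. NS levels were thus near the floor in the other glia. COL levels in astrocytes lay above those of oligodendrocytes and overlapped those of precursors. Notch1 was at 78.2, 68.5, 68.1 and 65.2 in astrocytes, and rose in oligodendrocytes (1.01) and precursors (0.86). C4b changed less in astrocytes than in oligodendrocytes (log2 change 3.50 against 6.38, adjusted p of the difference 2.08e-05), and its difference from precursors missed the threshold.

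**Figure D5:**
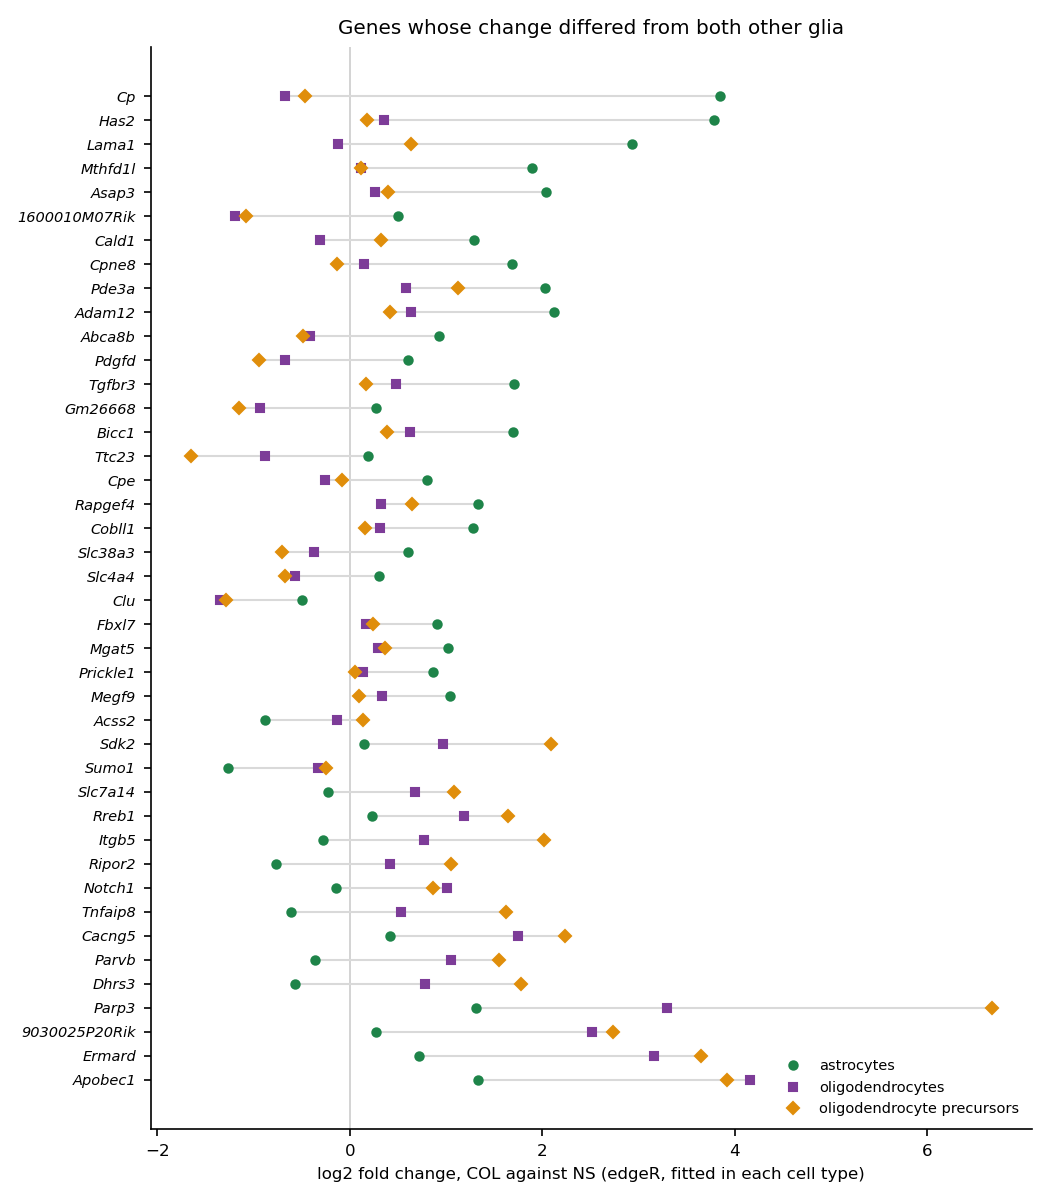
Log2 fold change of COL over NS in astrocytes (circles), oligodendrocytes (squares) and oligodendrocyte precursors (diamonds) for 42 of the 44 genes whose change in astrocytes differed from both in the same direction. Cp is highest in astrocytes (3.85 against -0.67 and -0.47) and Ermard lowest (0.72 against 3.16 and 3.64).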

How the data were processed

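Single-nucleus RNA was measured in 4 libraries of mouse thalamus, 2 NS and 2 COL, with replicates named as in the labels. The authors prepared nuclei on a 10x Chromium system and, per the labels, counted reads with Cell Ranger 1.2.0 against mm10. The deposited values are raw UMI counts per gene and barcode, with introns and strand handling not given in the sources used here. Kept nuclei held at least 500 genes and under 5% mitochondrial UMIs. No doublet caller was run; an alternative left out the 5% of gated nuclei with the most UMIs. Other cells were gated in the same way on their own markers.

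The members and lists were chosen with earlier results of these data known. Counts were summed per library, since nuclei are not replicates. The sums were tested in edgeR 4.0.16 (R 4.3.3) with TMM, filterByExpr and glmQLFTest, with Benjamini-Hochberg adjustment over all genes tested. The SE of a log2 change is its size over the square root of F. Differences between cell types were tested as an interaction with library as a block. Fold changes of genes with few NS counts depend on the prior count. The fits were also run on simulated counts. The spread of those counts was taken from these sums or set at a fixed value, so they do not show how reliable the calls are. Sums of 1206856 to 5383232 UMIs limit what COL can show for low genes.

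Of genes with an adjusted p under 0.05, those named were the 12 with the largest change in each direction at 20 or more CPM in the higher group, with no overlap between groups. Markers of other cells and symbols of the Gm or Rik kind were left out. From each of 24 lists, the first 3 members and up to 4 calls in each direction were named, with Apoe and Abca1 always; some of these genes are not reported here. Alternatives were DESeq2 1.42.0, RLE factors, no filter on low counts, the replicate block, other limits on genes and mitochondrial share, other gates, thinning to 2000 UMIs and leaving out each library. Promoters and the STAT letters came from RefSeq tables of GRCm38.p6.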

Additional observations from a re-analysis of the deposited data

Results flagged for a closer look

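The change from NS to COL differed between astrocytes and both other glia, in the same direction, for the following members of the gene lists, each by the interaction test in edgeR. The log2 change of Cp was higher in astrocytes than in oligodendrocytes by 4.46 and than in precursors by 4.39, but under the stricter exclusions Cp stood at 8.78 and 20.0 CPM in COL (2 and 4 UMIs) and at 12.04 and 17.65 in NS. That of Slc38a3 was higher by 0.94 and 1.38, that of Slc4a4 by 0.85 and 1.05, and that of Clu by 0.83 and 0.88. Slc38a3 and Slc4a4 stood lower in both other glia than in astrocytes in every library. Under the stricter exclusions the log2 change of Clu in astrocytes was -1.47 in place of -0.49, beside -1.34 in oligodendrocytes and -1.29 in precursors. For Notch1 the difference was -1.17 against oligodendrocytes and -0.96 against precursors, and under the stricter exclusions its log2 change in astrocytes was -0.95 in place of -0.14 (7 and 13 COL UMIs, adjusted p = 0.141). For Itgb5 it was -1.09 and -2.20. Of 8 alternatives run for these differences, Cp passed both thresholds in 7, Slc4a4 and Notch1 in 5, Slc38a3 in 4, Itgb5 in 3 and Clu in 2. Cp, Slc38a3 and Clu did not pass both under the stricter exclusions, which were applied to the astrocyte sums only.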

How the results depend on the processing

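The count of 1810 genes called in astrocytes became 932 with DESeq2, 2930 with no filter on low counts, 2751 with the replicate block, 482 with the stricter exclusions, 947 with a gate on Aqp4 and Gja1 and 895 with nuclei thinned to 2000 UMIs, and ranged from 1215 to 2541 when each library was left out. The settings differed in the genes they tested: 14506 in the main setting, 28698 with no filter and 8443 with the stricter exclusions. The gate on Aqp4 and Gja1 tested 10477 and thinning 11871. In this order the shares called were 12.5%, 10.2%, 5.71%, 9.04% and 7.54%. The 93 of 277 tested list members called became 60 of 277 with DESeq2 and 25 of 194 with the stricter exclusions. They became 50 of 224 with the gate on Aqp4 and Gja1 and 49 of 243 with thinning. The difference in the astrocyte share (-7.93 points) became -2.28 with the stricter exclusions and -2.45 with the gate on Aqp4 and Gja1, at NS over COL ratios of 5.53 and 3.34 beside 3.19. The count of genes whose change differed from oligodendrocytes (276) became 616 with no filter and 173 with the stricter exclusions, and ranged from 175 without COL replicate 1 to 501 without COL replicate 2. Against precursors (210) the count was 118 with the stricter exclusions, 45 without NS replicate 1, 90 without NS replicate 2 and up to 257 without COL replicate 2, and 262 with no filter. Among the named genes 2 were reversed with the stricter exclusions, Cp with -0.054 and Stat2 with -0.096 as log2 changes, with 24 further calls lost of 87 results that could be fitted. Of the other alternatives, thinning lost 28 named calls, DESeq2 16, the gate on Aqp4 and Gja1 15 and a gate sum of at least 20 lost 13. Leaving out NS replicate 1, NS replicate 2, COL replicate 1 or COL replicate 2 lost 22, 22, 18 and 12, all with the same direction. These included Socs3, Tgfbr2 and Nfkbia without NS replicate 1, Slc6a9, Socs3 and Sqle without NS replicate 2, Slc7a11, Aldh1a2, Slc6a9 and Serping1 without COL replicate 1, and Hmgcs1, Ncan and Mt2 without COL replicate 2. Slc38a3 was lost without either NS library and without COL replicate 1. The cause was not tested. The replicate numbers are shared by the groups but nothing in the labels pairs the libraries. The deviations of equal numbers correlated at r = 0.12 over 14520 genes, and the replicate block lost no named call and added 3. Without the left-out nuclei, a setting chosen after the data were seen, 126 of 128 results kept their direction and side of the threshold. The called genes Aldh1a2, Serping1, Tm4sf1, Socs3 and Gbp3 were too low to be tested there. The smaller COL sums limit what low genes can show.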
